A study of Mus musculus with 4 samples.

Results

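InvF is a mouse allele in which a stretch of chromosome 1 is turned around, and its contact map was compared with that of wild type (WT) for every pair of genome segments that the inversion touches. In each map, positions 71000001 to 81000000 of chromosome 1 (build mm9) were cut into 1000 bins of 10 kb. The inverted interval, 74830001 to 75900000, is 1070 kb long and holds 107 bins, with 383 bins to its left, at lower coordinates, and 510 to its right. Every pair with at least 1 bin in the interval was taken, which gave 101329 of 500500 pairs: 5778 with both bins inside, 40981 that join an inside bin to the left side and 54570 that join one to the right side. Pairs of a left bin with a right bin (195330) and pairs on one side, over 1 Mb from both breakpoints (124441), served as the background.

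The maps were made by capture Hi-C, which counts how often 2 genome segments are ligated after crosslinking and uses probes to enrich 1 region. The material was distal limb buds at E11.5 from WT embryos and from embryos homozygous for the mutant allele, InvF, with 1 library per genotype. DelB and DelBs, which are homozygous deletions of 76390001 to 78060000 and of 76390001 to 77860000, were used only as libraries in which the interval keeps its order. The labels do not say how many embryos went into a library. The spread between embryos could therefore not be measured, no p-value is given, and every 95% interval is exact and covers counting error alone.

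Mammalian chromosomes fold into domains, within which contacts are frequent, separated by boundaries that few contacts cross. An inversion leaves the sequence of the turned segment and of its flanks as it was, but exchanges which end of the segment lies beside which flank, so it is used to ask how contacts follow position along the chromosome. At this locus Epha4 encodes an ephrin receptor tyrosine kinase, Pax3 a transcription factor, Wnt6 and Ihh secreted signalling proteins, and Slc4a3 an anion exchanger. The published description places the inversion near Wnt6, and both deletions remove Epha4, which puts Epha4 on the right side here. These positions were not checked against an annotation of that build. In the GRCm38 gene table of RefSeq the order is Wnt6, Ihh, Slc4a3, Epha4 and Pax3, with 5 protein-coding genes between Wnt6 and Ihh, 25 between Ihh and Slc4a3 and 0 between Slc4a3 and Epha4 or between Epha4 and Pax3.

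The WT library held 5155274 counts and the InvF library 6073471, and 64.8% and 67.0% of all pairs had a count. InvF counts were divided by 1.24 to bring them to the WT level, a factor taken from pairs 20 kb to 2 Mb apart on one side of, and outside, the inversion and the deletions. Ratios below are of scaled InvF counts to WT counts. They are over pairs at least 20 kb apart, except that shares of the library, right shares, outside totals of a window, values of single bins, slots at equal distance from a junction and neighbours counted with the interval's first or last bin also take the pairs of adjoining bins. Observed over expected is a count divided by what the same library would give at that distance on its own allele, from pairs on one side of the interval; it has no correction for bins that are covered unevenly, so it is also given from the balanced maps of the authors (KR values) where it matters.

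In InvF the interval exchanged one side for the other. Pairs of the interval with the 1 Mb on its left had 59275 counts in WT and 113467 in InvF, a ratio of 1.54 (1.52 to 1.55). Pairs with the 1 Mb on its right had 111347 counts in WT and 72646 in InvF, a ratio of 0.525 (0.520 to 0.530). The interval thus gained contacts with its left side and lost contacts with its right side, although the turned segment remained between the same flanks. The corresponding KR ratios were 1.39 and 0.572. Over the whole map, pairs with the left side rose from 1.80% to 2.49% of the library and pairs with the right side fell from 4.68% to 3.03%.

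Pairs that the inversion does not move stayed near a ratio of 1. The 1 Mb on the left of the interval, taken alone, gave 0.997, the 1 Mb on the right alone gave 1.04, and pairs on one side over 1 Mb from both breakpoints gave 0.994. The left pairs belong to the set that fixed the scaling and the others overlap it, so these values were partly set by the scaling. All 124441 background pairs on one side, with no limit on their distance, gave 0.946 (0.944 to 0.947). Pairs of the left with the right side were not in that set. Left with right bins outside the interval, within 250 kb of it, had 942 counts in WT and 1221 in InvF, a ratio of 1.04 (0.957 to 1.14), which was 1.02 within 500 kb and 0.970 within 1 Mb. The left and right flanks thus met each other about as often with the segment between them turned as with it in WT order. Over all distances, where most single pairs have few counts, left with right pairs stood at 0.870 (0.864 to 0.877), or 0.871 in KR values. That ratio rests on 120058 counts in WT and 129961 in InvF, and its cause was not tested.

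The deletion alleles, in which the interval is not turned, showed no such exchange on the left. Their ratios to WT for the interval with the 1 Mb on its left were 0.966 in DelB and 0.994 in DelBs. With the 250 kb on the right, which both deletions leave in place, the ratios were 1.17 in DelB and 1.22 in DelBs against 0.484 in InvF. In both deletion libraries these ratios were thus above 1, while that of InvF was below it. Pairs without the interval rose there too. The right side alone, within 490 kb of the interval, stood at 1.15 in DelB and 1.14 in DelBs. Left with right pairs within 250 kb of the interval stood at 1.28 and 1.37. The rise in the deletion libraries was therefore not particular to the interval.

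The exchange was graded along the interval. For this it was divided into 11 windows from left to right in reference order, 10 of 100 kb and a last one, window 11, of 70 kb. Window 1, 74830001 to 74930000, lies at the left end on the reference and at the right end on the inverted allele. It had 17369 counts with the 1 Mb on the left in WT and 2921 in InvF, a ratio of 0.135 (0.130 to 0.141). With the 1 Mb on the right it had 1937 counts in WT and 29967 in InvF, a ratio of 12.4 (11.9 to 13.0). Window 1 was thus a left-hand neighbour in WT and a right-hand one in InvF.

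Windows 2 and 3 changed in the same direction by less, with ratios of 0.317 and 0.421 on the left and 4.22 and 3.09 on the right. Windows 4, 5 and 6, in the middle, lay at 0.756, 0.860 and 1.36 on the left and at 1.76, 1.17 and 0.618 on the right. The direction turned between windows 5 and 6. Window 7 stood at 2.00 on the left and 0.378 on the right, and window 8 at 4.42 and 0.139.

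Windows 9, 10 and 11, at the right end on the reference, mirrored window 1. Window 9, 75630001 to 75730000, had 1631 counts with the left in WT and 23190 in InvF, a ratio of 11.4 (10.9 to 12.0). With the right it had 26083 counts in WT and 2070 in InvF, a ratio of 0.0638 (0.0610 to 0.0667). Window 10 stood at 9.88 and 0.0639, and window 11, 75830001 to 75900000, at 11.3 (10.6 to 12.1) and 0.0939 (0.0899 to 0.0979). The KR ratios of the 11 windows had the same direction throughout, from 0.115 to 12.0 on the left and from 0.0707 to 11.2 on the right.

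The gain and the loss of a window were not of equal size. Window 1 had 1.34 times its WT contacts with both flanks of 1 Mb together (1.31 to 1.36). Windows 2 to 7 lay between 0.966 and 1.07 and window 8 at 0.907. Windows 9, 10 and 11 kept 0.733, 0.620 and 0.578 of their WT contacts outside the interval. The right end on the reference, which met the right side most often in WT, thus lost more contacts there than it gained on the left.

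**Figure D1:**
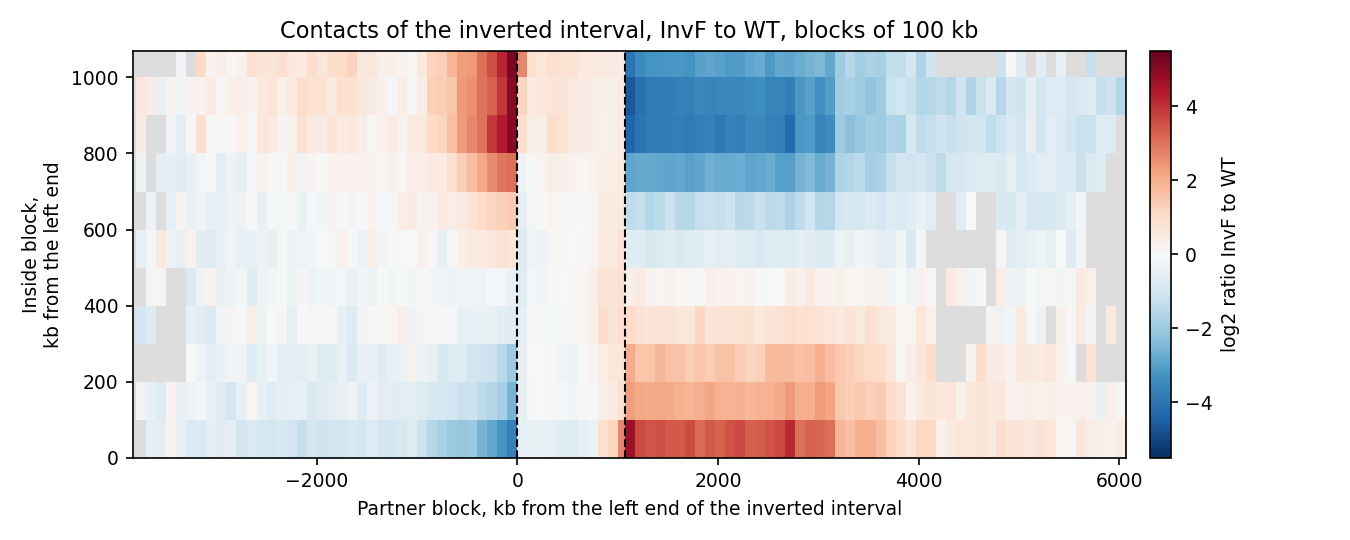
The log2 ratio of InvF to WT is drawn for each 100 kb block of the inverted interval (vertical axis, kb from its left end) against each partner block (horizontal axis, same origin); dashed lines mark the interval's ends and grey blocks had under 50 counts in both libraries. Red lies at the upper left and lower right and blue at the lower left and upper right, so each end of the interval gains one side and loses the other. Within the interval 2 blocks pass 2-fold, both of its first 100 kb with its right end. The higher has a ratio of 6.55, which is 1.09 without the first and last bins. The other inside blocks lie between 0.609 and 1.95.

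The same exchange was seen bin by bin in the right share, which is the percentage of a bin's contacts within 1 Mb outside the interval that fall on the right side. In window 1 the right share was 9.69% in WT (9.29% to 10.1%) and 90.3% in InvF (90.0% to 90.6%). In window 11 it was 95.8% in WT (95.5% to 96.0%) and 16.7% in InvF (16.1% to 17.3%). The 107 bins split into 47 with a higher share in InvF, 58 with a lower one and 2 whose intervals overlapped. All 47 higher bins lay in the first 480 kb on the reference, the last of them centred 475 kb from the left end, and the first lower bin was centred at 495 kb.

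The position at which a bin met both sides equally also differed. In WT the running median of the share over 5 bins first crossed 50% at 513 kb from the left end and stayed close to it, with 3 crossings up to 597 kb and 12 bins, centred between 505 and 615 kb, whose intervals held 50%. In InvF it crossed once, at 332 kb, with 4 such bins between 315 and 345 kb. The InvF crossing lies 738 kb from the left junction on the inverted allele, while the middle of the interval is at 535 kb. More of the interval therefore met mainly the left side in InvF: 33 of 107 bins had a right share over 50% there, against 53 in WT.

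**Figure D2:**
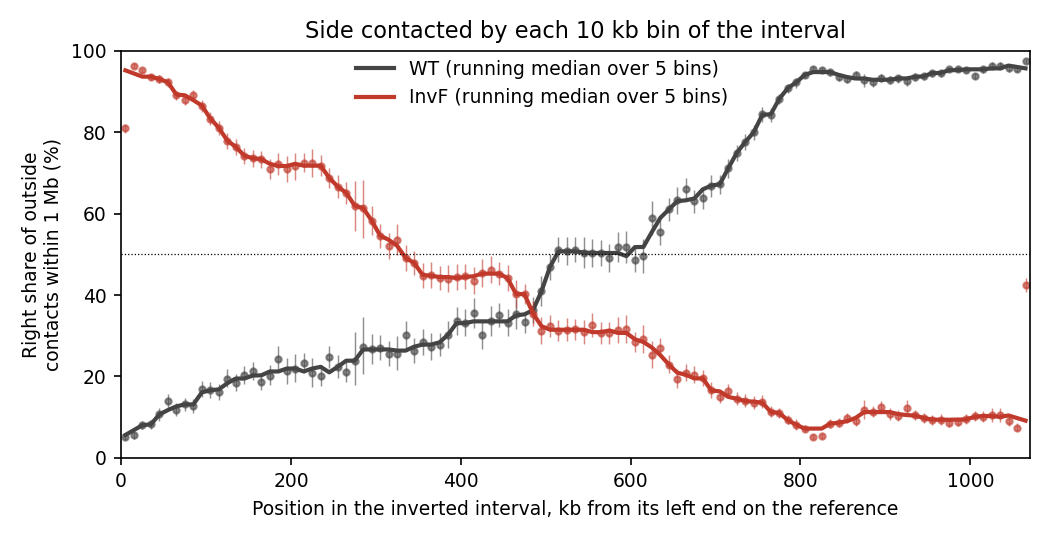
Points give the right share (vertical axis, % of contacts within 1 Mb outside the interval) of each 10 kb bin by its position on the reference (horizontal axis, kb from the left end), with exact 95% counting intervals as thin lines and the running median over 5 bins as thick lines. WT rises from 5.03% in the first bin, InvF falls across the interval and crosses 50% at 332 kb, and the first and last bins of InvF stand apart from their neighbours.

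The first and last bins of the interval kept contacts of both orders. The first bin, 74830001 to 74840000, had 1494 counts with the 50 kb on its left in WT and 537 in InvF, so it kept 0.289 of them (0.261 to 0.319). The next bin kept 0.0152 (793 and 15 counts). The last bin, 75890001 to 75900000, kept 0.267 of its WT contacts with the 50 kb on its right (0.241 to 0.296; 1469 and 488 counts), and the bin before it kept 0.0145 (998 and 18 counts).

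Both of these bins also met the far side in InvF. The first bin had 6 counts with the 50 kb on the right in WT and 1240 in InvF, and the last bin had 12 counts with the 50 kb on the left in WT and 1046 in InvF. The bins just outside the interval did not: 6 of them, 3 at each breakpoint, had ratios of 1.02 to 1.31 with the opposite 250 kb, while 3 bins inside each end had 20.8 to 41.7. Where in these 10 kb bins the breaks lie was not resolved. The first and last bins are called break bins below, and results at the ends are given without them too.

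At the breakpoints, old neighbours were separated almost completely. Bins of the interval and of the left flank within 50 kb of each other on the reference, without the break bin, had 1810 counts in WT and 34 in InvF, a ratio of 0.0151 (0.0104 to 0.0212). At the right breakpoint the counts were 1674 and 27, a ratio of 0.0130 (0.00852 to 0.0189). With the break bins both ratios were about 10 times as high, at 0.139 and 0.132, since the break bin itself supplied most of the InvF counts. Without the break bins, the InvF counts of the old neighbours were 0.342 (0.237 to 0.478) and 0.272 (0.179 to 0.395) times the level expected at their new distance of 1030 to 1090 kb.

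New neighbours met near the level expected for their distance on the left and below it on the right. At the left junction, pairs within 50 kb on the inverted allele, without the break bin, had 19 counts in WT and 1965 in InvF, a ratio of 83.2 (53.1 to 138). At the right junction they had 29 counts in WT and 1508 in InvF, a ratio of 41.8 (29.0 to 62.7). Observed over expected in InvF was 1.06 (1.01 to 1.11) on the left and 0.813 (0.772 to 0.855) on the right. In WT, the neighbours at the unbroken left and right breakpoints stood at 1.19 and 1.10.

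Without the break bins the ratios of the end windows moved little for new partners and more for lost ones. Window 1 stood at 11.6 with the right and 0.117 with the left, and window 11 at 10.9 with the left and 0.0548 with the right. The ratio of the interval to the 1 Mb on the left became 1.57 and that to the right 0.499.

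InvF counts followed distance on the inverted allele more closely than distance on the reference. Over 110 blocks of 100 kb that join the interval to the 1 Mb on the left, the log2 of observed over expected in InvF had an SD of 0.64 when distance was taken on the inverted allele and 1.55 when it was taken on the reference. For the right side the SDs were 0.71 and 1.68. In WT, with distance on the reference, the SD was 0.55 on the left and 1.04 on the right. The InvF counts correlated across these blocks with the level expected on the inverted allele at r = 0.926 on the left and 0.794 on the right. With the level expected on the reference r was 0.089 and -0.390. The blocks share bins and depth, so these are descriptions of the maps.

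Set against the expected level, the interval stood higher with its right side than with its left in WT, and higher with its left side than with its right in InvF. With the 1 Mb on the left, observed over expected was 0.535 in WT and 0.800 in InvF. With the 1 Mb on the right it was 1.00 in WT and 0.510 in InvF. In KR values these were 0.577 and 0.778 on the left and 0.803 and 0.444 on the right. The side that faced windows 8 to 11 at short range thus had the higher value in each genotype.

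The windows that carried this level were 8, 9 and 10. With the right side, window 8 stood at 1.31 times the expected level in WT, window 9 at 1.84 (1.82 to 1.86) and window 10 at 1.56 (1.54 to 1.58). In InvF the same windows stood at 0.313, 0.273 and 0.330 with the right. With the left side, they stood at 0.513, 0.278 and 0.321 in WT and at 1.23, 1.29 (1.27 to 1.30) and 0.910 in InvF. In KR values windows 8, 9 and 10 stood at 1.06, 1.43 and 1.09 with the right in WT and at 1.19, 1.23 and 0.774 with the left in InvF. Windows 8 and 9 were thus above the expected level on the side they faced in each genotype, and window 10 was so in WT but not in InvF. Window 9 was lower on the left in InvF than on the right in WT with both kinds of values, while for window 8 that order depends on the balancing.

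Window 1 did not carry such an excess. It stood at 0.747 with the left in WT and at 1.01 with the right in InvF. Window 11, the neighbour of the left flank in InvF, stood at 0.594 there (0.627 without the break bin), against 1.19 with the right in WT. Windows 3 to 6 stayed between 0.261 and 0.648 on both sides in both genotypes, so the middle of the interval met the outside less than distance would give whichever way it was turned.

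**Figure D3:**
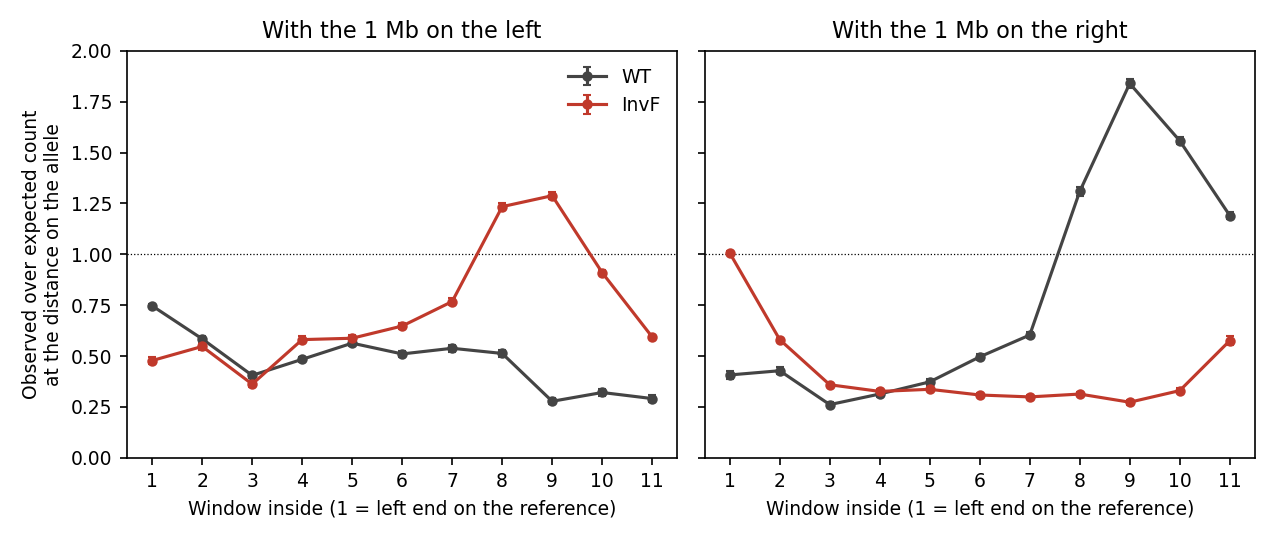
Observed over expected (vertical axis, at the distance on each allele) of the 11 windows (horizontal axis, in reference order) with the 1 Mb on the left and on the right; bars are exact 95% Poisson intervals, mostly smaller than the points. The peak of windows 8 to 10 stands on the right side in WT and on the left side in InvF, where it reaches 1.29 against 1.84.

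Positions at equal distance from a junction were then compared, to set what now faces a flank beside what faced it before. Each flank of 500 kb was paired with 10 slots of 100 kb counted from the junction, which hold the left part of the interval in WT and its right part, turned, in InvF, and the reverse on the right. The slot nearest the left junction, at 0 to 100 kb, had 15196 counts in WT (window 1) and 18532 in InvF (75800001 to 75900000), a ratio of 0.981 (0.960 to 1.00). Without the break bins it was 1.08, and in KR values 0.779. For this slot the direction thus depends on the break bins and on the balancing.

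The difference lay deeper. In the slot at 200 to 300 kb the left flank had 4118 counts in WT, with 75030001 to 75130000, and 22307 in InvF, with 75600001 to 75700000, a ratio of 4.36 (4.21 to 4.50). The slot at 300 to 400 kb stood at 2.59, those at 100 to 200 kb and 500 to 600 kb at 1.61 and 1.62, and the last 2, from 800 to 1000 kb, at 1.97 and 2.18. The remaining slots stood between 1.09 and 1.25, but the one at 700 to 800 kb, at 1.09, stood at 1.57 in KR values. Over the whole interval the ratio was 1.69 (1.67 to 1.71). In KR values the slot at 200 to 300 kb stood at 2.89.

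On the right the same slots gave the converse. The slot at 200 to 300 kb had 16430 counts in WT, with 75600001 to 75700000, and 3583 in InvF, with 75030001 to 75130000, a ratio of 0.175 (0.169 to 0.182), or 0.270 in KR values. The first slot stood at 0.691 (0.677 to 0.704; 0.670 without the break bins) and the slots at 100 to 200 kb and 300 to 400 kb at 0.407 and 0.326. Beyond 600 kb the ratios lay between 0.732 and 1.33. The highest, at 700 to 800 kb, was 0.915 in KR values, so its direction depends on the balancing. Among these slots, the largest gain on the left and the largest loss on the right thus compared the same stretches. These were 75600001 to 75700000 and 75030001 to 75130000. Each ratio sets them against each other, so it cannot tell a high level of the former from a low level of the latter.

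**Figure D4:**
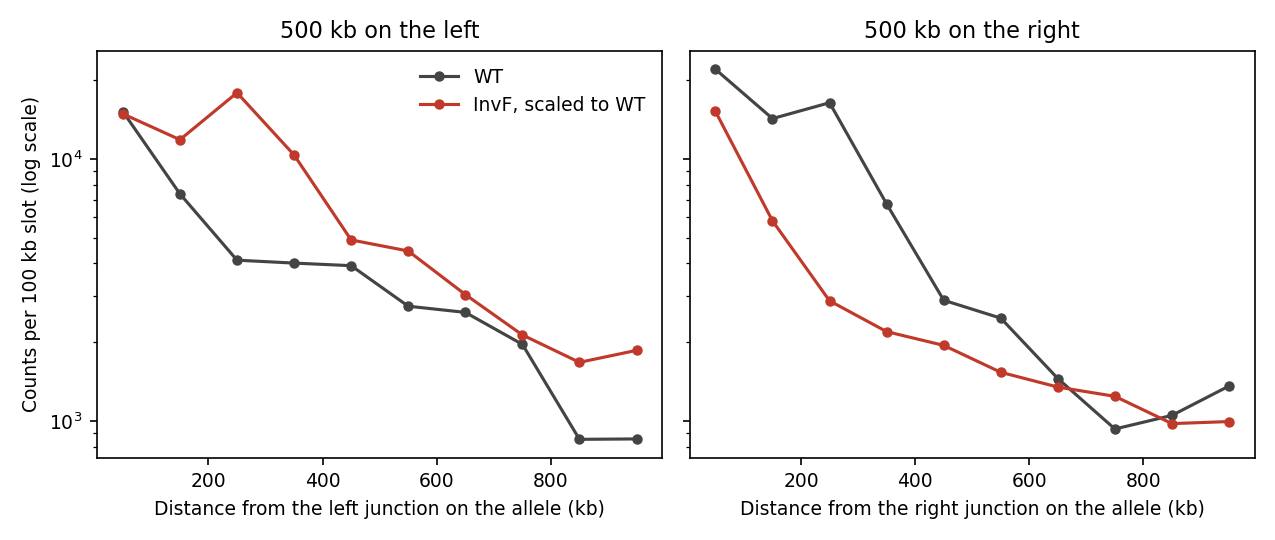
Counts of the 500 kb on the left and on the right (vertical axis, log scale, InvF scaled to WT) with 100 kb slots of the interval at a given distance from the junction on each allele (horizontal axis, kb). On the left InvF has a peak at 200 to 300 kb that WT lacks, with 22307 counts before scaling against 4118, and on the right WT has that peak and InvF does not.

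The new contacts of window 1 reached far to the right. Without the break bin, its ratio was 21.4 with the first 100 kb, 75900001 to 76000000 (194 counts in WT and 5154 in InvF). It then lay between 8.09 and 12.3 in every 100 kb block up to 78000000, with the exception of 77500001 to 77600000, where it was 17.1 (162 and 3435 counts; 14.6 to 20.1). The block 77900001 to 78000000 had 152 counts in WT and 1621 in InvF, a ratio of 8.58, and the next one, to 78100000, 194 and 888, a ratio of 3.68. The gain thus ran at a near even level over about 2 Mb and fell by more than 2-fold between neighbouring blocks at 78000000.

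Counts of window 1 on the right rose against the distance level over most of this stretch, from below it to above it. Without the break bin, observed over expected in InvF was 0.655 in the first 100 kb block, 1.02 in the block from 76200001 and 2.29 in that from 76800001. It was highest, at 8.49, at 77500001 to 77600000, against 1.64 there in WT. In the blocks from there to 78000000 it stood at 5.39, 6.36, 7.55 and 7.25, and in the block after 78000000 at 4.43. The high values rest on an expected level, a mean count per pair, that is low at such distances. Over 500 kb segments the KR values gave 0.649, 1.40, 2.67, 5.71 and 4.46 in the same order, so they too rose up to the segment 77400001 to 77900000. Window 11, which lies at this end in WT, had a similar rise there. Its WT observed over expected, without the break bin, was 1.04 in the first block and 2.38 in that from 76800001. It was 5.97 at 77500001 to 77600000 and 2.90 after 78000000, so the rise was not particular to window 1 in InvF.

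Window 11 lost the same stretch. Its WT counts with the right, without the break bin, fell from 5015 in the first 100 kb block to 1074 in the fifth. They then stayed between 991 and 1426 up to 77600000 and stood at 538 in the block before 78000000 and at 313 in the block after it. In InvF the same blocks had 65 to 167 counts each up to 78000000, at ratios of 0.0231 to 0.132. Beyond 78000000 the ratio was 0.249 to 0.293 over the next 5 blocks of 100 kb. The losses of window 11 and the gains of window 1 thus both changed size at the same position.

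The new contacts of window 11 on the left fell steeply with distance. Without the break bin, the ratio was 33.1 with the first 100 kb (145 counts in WT and 5968 in InvF), then 18.1, 12.3, 8.08, 5.10, 5.06, 3.66, 2.40, 2.58 and 1.53 in the following blocks, and 1.03 in the block at 1000 to 1100 kb. Most of the gain thus lay within 1 Mb. Further left the ratio was above 1 again, between 1.17 and 2.36 over 19 blocks, on WT counts of 27 to 83 per block. By segments of 500 kb it was 1.23 (1.09 to 1.41) at 1000 to 1500 kb, 1.82 (1.58 to 2.10) at 1500 to 2000 kb, 1.77 (1.51 to 2.07) at 2000 to 2500 kb and 1.42 (1.19 to 1.71) at 2500 to 3000 kb.

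The same contrast held for the neighbouring windows. Window 2 stood at 4.43 with the first 500 kb on the right and still at 4.48 with 77400001 to 77900000, and window 3 at 3.31 and 3.39. On the left, window 9 stood at 19.4 with the first 500 kb and 2.73 with the next, and window 10 at 16.6 and 2.77. Both were between 1.15 and 1.67 in the 3 segments beyond 1 Mb. Their losses on the right changed less over distance. Window 9 stood at 0.0602, 0.0697, 0.0779 and 0.0787 in the 4 segments of 500 kb up to 77900000 and at 0.177 in the next. Window 10 stood at 0.0557, 0.0789, 0.0853 and 0.0907, then at 0.212.

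**Figure D5:**
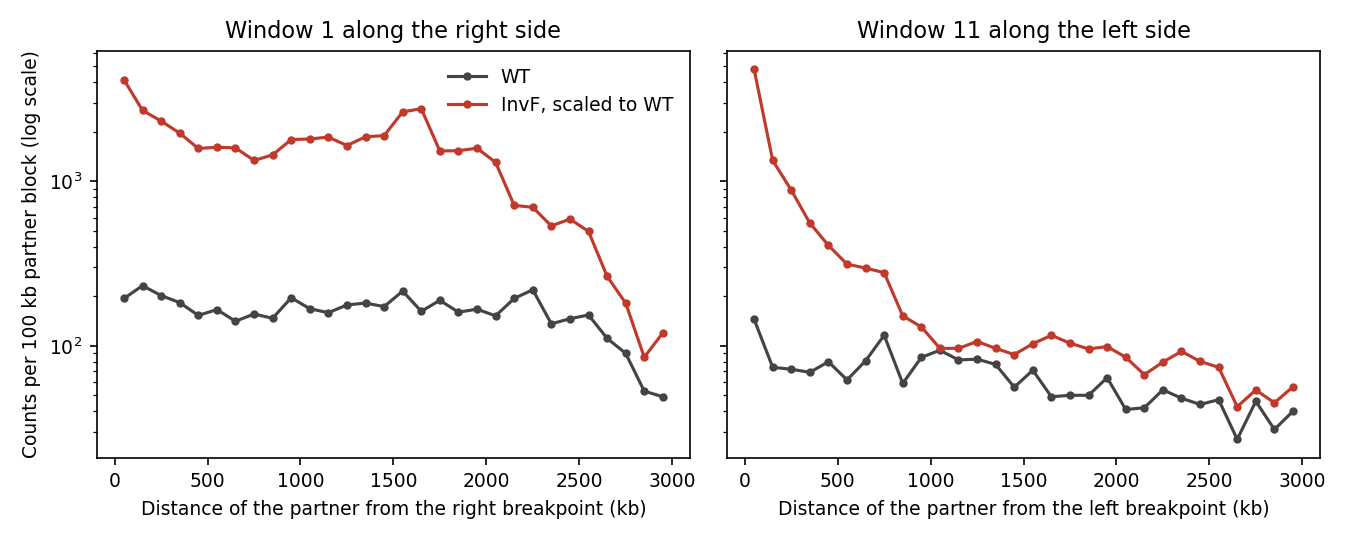
Counts of window 1 with 100 kb blocks of the right side and of window 11 with blocks of the left side (vertical axes, log scale, InvF scaled to WT) by distance of the partner from the breakpoint (horizontal axes, kb). Window 1 of InvF stays on a plateau to about 2000 kb with a peak near 1600 kb, while window 11 of InvF falls steeply to meet the WT curve near 1000 kb and lies above it again from about 1500 kb.

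Blocks of 100 kb that held at least 50 counts in 1 of the 2 libraries were then counted, a block being called when it was over 2-fold higher or lower. Of 396 blocks that join the interval to the left side, 40 were higher (10.1%) and 30 lower (7.58%). Of 498 blocks with the right side, 85 were higher (17.1%) and 174 lower (34.9%). Of 3419 blocks without an inside bin, 0 were higher (0%) and 8 lower (0.234%). These 8 were 6 of 1355 blocks of the left with the right side (0.443%) and 2 of 1325 within the right side (0.151%). Of 1266 blocks over 1 Mb from both breakpoints on one side, 0 were called (0%). Over all 4379 blocks 127 were higher (2.9%) and 212 lower (4.84%). With 1 library per genotype these counts have no test behind them.

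The called blocks were ordered along the interval. On the left, the 40 higher blocks lay in windows 7 to 11, with 4, 6, 9, 9 and 12 in each, and the 30 lower blocks in windows 1 to 4, with 17, 7, 5 and 1. On the right, the 85 higher blocks lay in windows 1 to 4, with 30, 26, 27 and 2, and the 174 lower blocks in windows 7 to 11, with 22, 33, 42, 44 and 33. Windows 5 and 6 held 0 called blocks on either side. In DelB and DelBs, 0 of 409 and 0 of 406 blocks of the interval with the left side passed 2-fold.

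The blocks with the largest changes lay at the junctions, and a few lay far from them. The highest on the left joined window 11 to 74730001 to 74830000 (160 counts in WT and 7244 in InvF, ratio 36.4), followed by windows 10 and 9 with the same block at 32.4 and 32.1. The lowest there joined window 1 to that block (7661 and 724 counts, ratio 0.0760). The highest on the right joined window 1 to 75900001 to 76000000 (209 and 6748 counts, ratio 26.0), and the second highest joined it to 77500001 to 77600000, over 1.5 Mb away from the junction (175 and 3849 counts, ratio 17.7). The lowest on the right joined window 10 to 75900001 to 76000000 (6114 and 298 counts, ratio 0.0392), and the third lowest joined window 9 to the same far block, 77500001 to 77600000 (2700 and 173 counts, ratio 0.0515). The order of the low blocks depends on the break bins: without them window 11 with 75900001 to 76000000 stood lowest on the right, at 0.0231 (5015 and 144 counts), and window 1 with 74730001 to 74830000 stood at 0.0457. The highest blocks then stood at 33.1 for window 11 on the left and at 21.4 and 17.1 for window 1 on the right.

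Contacts within the interval, whose distances the inversion does not alter, changed far less. Pairs with both bins inside had 226619 counts in WT and 299997 in InvF, a ratio of 1.06 (1.06 to 1.07), or 1.07 in KR values. The ratios of DelB and DelBs to WT were both 1.00. With inside pairs under 20 kb apart also counted, the InvF ratio was 0.987 (0.983 to 0.991), on 429377 and 526916 counts. The direction of this small change thus depends on the 20 kb limit. By distance, the InvF ratio was 1.04 at 20 to 100 kb, 1.09 at 110 to 300 kb and 1.05 at 310 to 600 kb. At 610 to 1060 kb it was 1.53, which became 1.14 (1.09 to 1.18) without the break bins, against 1.08 in DelB and 1.13 in DelBs.

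Most of the gain between the ends of the interval lay in the break bins. Windows 1 and 11 had 187 counts with each other in WT and 1523 in InvF, a ratio of 6.55 (5.62 to 7.66). Without the break bins the ratio was 1.09 (136 and 185 counts). The first bin alone had 84 counts with the last 250 kb of the interval in WT and 1398 in InvF, a ratio of 13.4, while the second bin had 57 and 66, a ratio of 0.931 (0.643 to 1.35). At the other end, the last bin had 51 and 450 counts with the first 250 kb, a ratio of 7.10, and the bin before it 81 and 140, a ratio of 1.39 (1.05 to 1.85). The first 250 kb with the last 250 kb stood at 2.13, and without the break bins at 1.26 (1.19 to 1.34), against 1.05 in DelB and 1.14 in DelBs. Of 66 inside blocks, 2 were over 2-fold higher (3.03%) and 0 lower (0%), and without the break bins 0 were higher.

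Within the interval, the left part met itself less often in InvF and the right part more often. Without the break bins, the first 250 kb had 30640 counts with itself in WT and 33058 in InvF, a ratio of 0.868 (0.854 to 0.881). The last 250 kb had 34423 and 55634, a ratio of 1.30 (1.28 to 1.32). The KR ratios were 0.786 and 1.49. In DelB the ratios to WT were 0.976 and 1.04, and in DelBs 1.02 and 1.03, so neither deletion library showed a difference of that size.

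The same split was seen with the middle 570 kb of the interval, a division chosen after the values had been seen. The first 250 kb stood at 0.898 with the middle (0.885 to 0.911) and the last 250 kb at 1.40 (1.38 to 1.43), against 1.03 and 1.10 in DelB. The middle alone stood at 1.03. Among single inside blocks without the break bins, window 4 with window 9 had the ratio 1.95 (354 and 859 counts) and window 1 with window 6 the ratio 0.626 (1295 and 1008 counts). Window 1 thus met the middle less in InvF, and the right end met it more.

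Crossing contacts were counted at 2 of the 3 WT boundaries inside the interval; the one after 74870000 lies 40 kb from the left end, too close for these squares. Its insulation score (lower with fewer crossing contacts), whose window takes in sequence past the junction, was -0.30 in WT and -1.05 in InvF. The boundary after 75610000, the deepest of those in the interval, was crossed by 4332 counts within 100 kb on each side in WT and 7060 in InvF, a ratio of 1.31 (1.26 to 1.36), counting inside pairs only. The ratio was 1.09 in DelB and 0.977 in DelBs, and 1.50 for InvF in KR values. At the boundary after 75310000 the InvF ratio was 1.02. Over all 88 positions inside the interval where such a square could be placed, InvF ratios ran from 0.744 after 74930000 to 1.36 after 75800000, with a median of 1.02. With these squares the boundary after 75610000 thus lay near the top of the range, but was not its peak. With squares of 50 kb the highest ratio was 1.41 after 75850000, against 1.26 at the boundary. With squares of 200 kb it was 1.343 after 75620000, the next position, against 1.339 at the boundary. Where the peak lies thus depends on the size of the square. With squares of 100 kb the range was 0.845 to 1.10 in DelB and 0.866 to 1.08 in DelBs.

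Beyond the first 1 Mb the interval as a whole stayed close to WT on the left and lower on the right. With the left side beyond 1 Mb the ratio was 0.916 (32842 and 37413 counts) and with the right side beyond 1 Mb 0.692 (129191 and 111158 counts). In DelB and DelBs the left value was 0.936 and 0.881, so the InvF value lay between those of libraries with the interval in WT order. By segments of 500 kb, the right ratio was 0.508, 0.553, 0.569, 0.691 and 0.858 from the interval outwards and lay between 0.799 and 0.836 in the following 5 segments, up to 80900000. The left ratio was 1.71 and 1.07 in the first 2 segments and then fell slowly from 0.961 to 0.850 over the next 5. The right ratio was thus highest in the segment that begins at 77900001. From there outwards it lay between 0.799 and 0.858, beside 0.870 for all left with right pairs outside the interval. These outer values were therefore not far from the level of long-range pairs that the inversion does not move.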

How the data were processed

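Capture Hi-C maps of WT and InvF distal limb buds (1 library each) were used as deposited, with DelB and DelBs for comparison. Raw maps, as deposited, give counts of read pairs for each pair of bins, with a mapping quality limit of 30 according to the file names. The KR maps hold a signal per pair, balanced by the authors per the file names, with 14 pairs without a value in WT and 7 in InvF. The submitters' processing notes name Bowtie2 2.2.6 and build mm9. The treatment of PCR duplicates is not given in the sources used. The deposited difference maps and the KR maps of DelB and DelBs were not used. The 0 unmatched columns left nothing out.

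Computation used Python 3.11.15, numpy 2.4.6, scipy 1.17.1, pandas 2.3.3 and matplotlib 3.10.9. Ratios have exact conditional binomial, observed over expected exact Poisson and shares exact Clopper-Pearson intervals, at the 95% level. InvF counts were scaled by 1.24, DelB by 1.43 and DelBs by 1.50. Blocks needed 50 counts and had a pseudocount of 1. Boundaries were WT insulation minima of a 200 kb window at least 0.2 deep. Regions were named by rule: windows, flanks, WT boundaries and each class's extreme blocks. The members, regions and lists were chosen with earlier results of these data known. Leaving out the break bins was added after seeing the data. On simulated maps with Poisson noise alone, 200 of 200 changed blocks were recovered, with 0 of 1867 unchanged blocks called. The planted changes all lay beyond the 2-fold limit, in well covered blocks. Changed and unchanged blocks lay on one side of the interval, so calls in blocks with an inside bin were not tested. Gene names and their order come from RefSeq's GRCm38 table.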

Additional observations from a re-analysis of the deposited data

How the results depend on the processing

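No ratio or observed over expected value passed to the other side of 1 under the alternatives. The 20 kb limit was not among them, and without it the inside ratio was 0.987 in place of 1.06. Counts of blocks and crossing points have no direction that could reverse, so they were judged by size or position alone. Of the 75 alternatives run on 13 results, 36 stayed within counting error or, for counts of blocks, within 1.5 times. Scaling by the total of all counts gave ratios of 1.12 inside, 1.62 with the left and 0.554 with the right, and 5 higher inside blocks. Scaling by pairs over 1 Mb away gave 1.07 inside. KR values gave 1.39 with the left and 0.572 with the right, observed over expected of 0.778 and 0.444, 5 higher inside blocks, and a WT crossing of the right share at 621 kb. Leaving out bins within 20 kb of a breakpoint gave ratios of 1.06 inside and 0.490 with the right, and observed over expected of 0.754 and 0.471. Leaving out the break bins gave ratios of 1.57 and 0.499, observed over expected of 0.807 and 0.488, and 0 higher inside blocks. With a 500 kb flank the ratios were 1.71 and 0.508, observed over expected was 0.952 and 0.449, and the WT crossing was at 625 kb. The WT decay gave observed over expected of 0.819 and 0.522, and the reference distance 0.514 with the right. Over the whole interval and a flank, both orders give almost the same set of distances, so the reference distance could barely move this value. Blocks of 50 kb gave 155 higher and 105 lower on the left, 337 and 511 on the right, and 14 and 2 inside. Blocks of 200 kb gave 12 and 6 on the left, 24 and 55 on the right, and 1 higher inside. Apart from the block sizes, which change how many blocks exist, the cause of these shifts was not tested.

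No paired analysis was possible because each genotype has 1 library. The limits are the same throughout: differences between embryos were not measured, duplicates may make the intervals too narrow, and the expected level does not correct for uneven coverage, which KR values do at the cost of changing sums in bins that gained or lost contacts. The WT crossing of the right share has no single position, as the share stays near 50% over 12 bins.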
